A study of Mus musculus with 8 samples.

Results

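TRBV2, TRBV4 and TRBV5 are variable segments at the upstream end of the mouse T cell receptor beta locus. Productive beta chain contigs that carry any of the 3 were taken from the receptor libraries of brain immune cells, and they made up 686 of 6795 TRB contigs. Of these, 154 carried TRBV2, 249 TRBV4 and 283 TRBV5. The deposited tables hold 0 contigs under the name TRBV4. They list 249 contigs under the name TRBV10, and in all 249 the 270 bases of the V region were those of Trbv4 in the GENCODE annotation and in 0 those of Trbv10, which the annotation lists as a pseudogene. These contigs are called TRBV4 throughout, and 437 contigs would be left by name alone. The names TRBV2 and TRBV5 held against the annotated sequences, in 154 of 154 and 282 of 283 contigs.

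A T cell builds its beta chain by joining a V, a D and a J segment, and enzymes trim the segment ends and add untemplated bases at the joins. The joined stretch is the CDR3 (complementarity-determining region 3), the loop that mostly contacts the bound peptide, while CDR1 and CDR2 are encoded in the V segment and mostly contact the presenting molecule. The sequence of a V segment is therefore inherited, while the joining sets which segment a cell carries. The CDR3 is the near-unique tag of a cell, so cells that share both chains are read as a clone. The invariant natural killer T cell (iNKT) has a fixed alpha chain, TRAV11 joined to TRAJ18, and pairs it with a small set of beta segments.

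CD45+ cells, the immune cells of the tissue, had been sorted out of the brains of C57BL/6 mice. All mice carried the 5xFAD transgenes, a model of amyloid deposition in Alzheimer's disease that the Thy1 promoter drives in neurons. The 5xFAD;Cxcr6-/- group also lacked Cxcr6, which encodes a chemokine receptor of tissue-resident T cells, and the 5xFAD group had it intact. Each genotype had 2 receptor libraries, and no mice without the transgenes were included. The labels give neither age nor sex nor whether a library is 1 mouse or a pool. The exact tests rest on the spread among the libraries, which may be technical. The edgeR and DESeq2 tests count clones and estimate spread with information from all segments. Their p-values therefore do not measure the spread of 1 segment among the libraries.

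Usable cells, with 1 TRB and 1 or 2 TRA chains, numbered 1527 and 1885 in 5xFAD and 567 and 1046 in 5xFAD;Cxcr6-/-, or 5025 of 6686 barcodes. They formed 3391 clones by the deposited clonotype names, of which 445 were expanded (2 or more cells). The libraries shared 28 barcodes, 5 of them on cells with 1 of the 3 segments, and 0 of the 28 had the same TRB chain in both libraries. All contigs were TRA or TRB, and 0 were of gamma-delta or immunoglobulin chains. Whether gamma-delta T cells or B cells were among the sorted cells cannot be read from these receptor libraries. The chains do not tell CD4 from CD8 cells.

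In the GRCm38 annotation all 3 segments lie on the plus strand of chromosome 6, numbers 2, 4 and 5 in the order of 35 annotated V genes and pseudogenes. Trbv2 spans chr6:41047340-41047995, Trbv4 chr6:41059394-41059886 and Trbv5 chr6:41062332-41062803, each annotated as a functional V gene. They lie 485.9, 474.0 and 471.1 kb upstream of the first joining segment. Trbv3 lies between Trbv2 and Trbv4, 294 bp after Trbv2. Over the V region, TRBV2 shared 62.4% of aligned bases with TRBV4 and 63.2% with TRBV5, and TRBV4 shared 59.6% with TRBV5.

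The CDR1 sequences, read from the contigs, are shown because they are the inherited contact loop by which the 3 segments can be compared.
TRBV2 CDR1: ctaggccacaatgct
TRBV4 CDR1: ctgggccacgatact
TRBV5 CDR1: ctgggacataatgct
The TRBV2 and TRBV5 loops encode the same amino acids through different codons. The TRBV4 loop differs from both at its last residues, with aspartate and threonine in place of asparagine and alanine.

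The last germline bases of each V segment, which open the CDR3, are shown next because every CDR3 described below opens with a part of them. Codon 5 is in capitals.
TRBV2 V end: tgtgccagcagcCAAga
TRBV4 V end: tgtgccagcagcTAAga
TRBV5 V end: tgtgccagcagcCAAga
TRBV2 and TRBV5 end in the same 17 bases. Codon 5 of TRBV4 is a stop, taa, so an in-frame chain that keeps 15 or more of the 17 bases cannot be productive.

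The length of V end left in the CDR3 differed between the segments. Among TRBV2 clones 59 of 114 (51.8%) kept all 17 bases, and among TRBV5 clones 69 of 179 (38.5%) did. Among TRBV4 clones 0 of 121 kept 15 or more, as the stop codon requires in a table of productive chains. The most frequent length kept by TRBV4 clones was 12 bases, in 51 clones, followed by 13 bases in 40, and the 13 clones that kept 14 went on with c in 9 and with t in 4, both of which make a tyrosine codon in place of the stop.

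**Figure D1:**
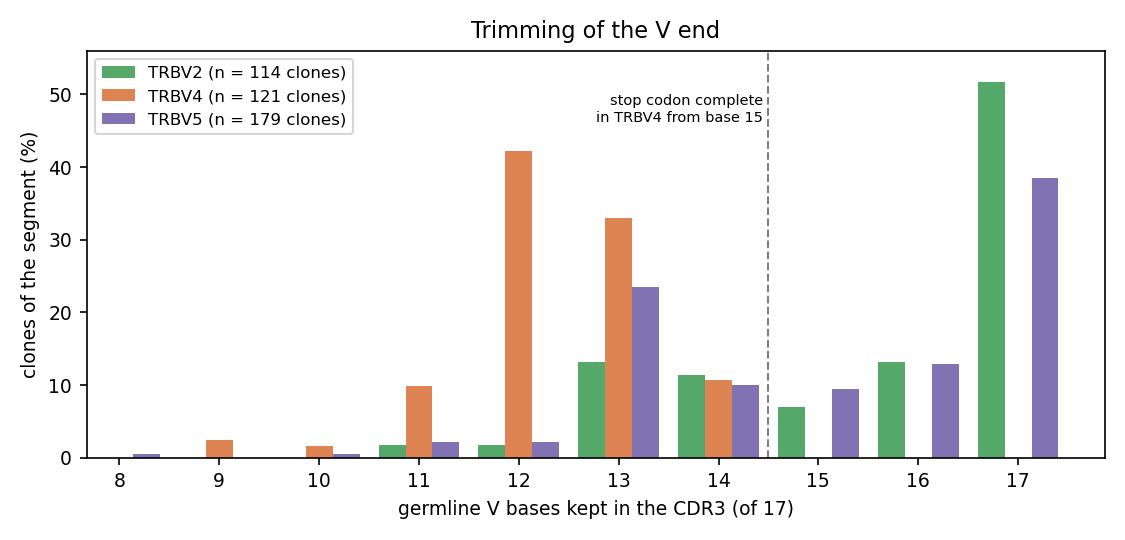
Share of clones of each segment (y axis, %) by the number of germline V bases left in the CDR3 (x axis, of 17). TRBV2 and TRBV5 peak at 17 bases, with 51.8% and 38.5% of clones, and TRBV4 stops at 14, before the dashed line.

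Averaged over the 4 libraries, TRBV2 clones kept 15.8 ± 0.25 V bases (SD, n = 4), TRBV5 clones 15.02 ± 0.52 and TRBV4 clones 12.4 ± 0.12. Clones with another V segment kept 13.5 when compared with TRBV2. The difference went the same way in 4 of 4 libraries for each segment, which gives the smallest p of a 2-sided exact sign-flip test over 4 libraries, 0.125. The stop codon holds productive TRBV4 chains to at most 14 V bases. The TRBV4 direction was thus largely set in advance, and its test adds no support. The middle of the CDR3, which holds the D segment and the added bases, averaged 10.2 ± 0.46 bases in TRBV2, 10.9 ± 0.85 in TRBV4 and 10.1 ± 0.41 in TRBV5, against 9.90, 9.87 and 9.90 in the remaining clones. The TRBV4 middle was longer in 3 of 4 libraries (difference 1.08 ± 0.75 bases, exact p = 0.25).

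CDR3 lengths also placed TRBV4 lowest, while TRBV2 and TRBV5 did not keep 1 order over the libraries. TRBV2 CDR3s averaged 14.7 and 14.1 residues in 5xFAD and 14.6 and 14.7 in 5xFAD;Cxcr6-/-. TRBV5 CDR3s averaged 14.3 and 14.2, then 14.7 and 14.6, and TRBV4 CDR3s 13.8 and 13.7, then 13.6 and 13.3. TRBV4 lay below both other segments in every library. Against all other TRBV clones of the same library, TRBV2 was longer by 0.66 ± 0.25 residues (SD over 4 libraries), TRBV5 longer by 0.59 ± 0.29 and TRBV4 shorter by 0.29 ± 0.19, each in 4 of 4 libraries. Each gave exact p = 0.125, or 0.231 after Benjamini-Hochberg adjustment over 24 comparisons of this kind. The V end is part of this length, so the limit of 14 V bases in productive TRBV4 chains bears on the TRBV4 test too. TRBV5 and TRBV2 differed by -0.08 ± 0.21 residues (exact p = 0.875). Between genotypes, TRBV5 CDR3s were 0.40 residues longer and TRBV4 CDR3s 0.30 shorter in 5xFAD;Cxcr6-/- libraries, without overlap. Each gave exact permutation p = 0.333, the smallest that 2 libraries against 2 allow, or 0.694 after Benjamini-Hochberg adjustment over 25 comparisons. Any split without overlap gives that unadjusted p, so neither is evidence of a genotype difference.

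The first residues of the CDR3 showed the shared V end of TRBV2 and TRBV5. Glutamine, the residue of the germline caa, stood at residue 5 in 92 of 114 TRBV2 clones (80.7%) and 120 of 179 TRBV5 clones (67.0%). Proline stood there in 9 (7.89%) and 32 (17.9%). In TRBV4 residue 5 was spread over leucine (22 of 121 clones), proline (16), tyrosine (14) and serine (11). No CDR3 amino acid sequence was found with 2 of the 3 segments: TRBV2 and TRBV5 had 114 and 178 distinct sequences and shared 0 of them.

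With the first 4 and last 3 residues left out, the CDR3s of TRBV2 and TRBV5 were less hydrophobic on the Kyte-Doolittle scale than those of other TRBV clones. The differences were -0.51 ± 0.09 and -0.32 ± 0.18 (SD over 4 libraries), lower in 4 of 4 libraries each (exact p = 0.125). The TRBV4 difference was -0.0012 ± 0.15. That setting keeps residue 5, whose codon was still germline in 71.9% of TRBV2 and 60.9% of TRBV5 clones. It also keeps residue 6, whose codon opens with ga where all 17 V bases are kept (51.8% of TRBV2 and 38.5% of TRBV5 clones). A codon that opens with ga encodes aspartate or glutamate, which are acidic and not hydrophobic. The TRBV2 and TRBV5 directions were thus partly set in advance by the V segment, and their tests add no support. With the first 6 residues left out, a choice made after seeing the data, the differences were 0.02, 0.15 and 0.21 for TRBV2, TRBV5 and TRBV4, so the negative sign was not kept. Net charge was lower by 0.32 ± 0.14 for TRBV2 and 0.28 ± 0.18 for TRBV5 in 4 of 4 libraries each (exact p = 0.125). The differences were -0.07 and -0.14 with 6 residues left out. The acidic residue 6 counts in the charge with 4 residues left out, so that test adds no support either.

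TRBV5 was the most used of the 3 segments. It made up 5.22 and 4.80% of clones in 5xFAD and 5.73 and 5.76% in 5xFAD;Cxcr6-/-. By mean share it ranked 9 of 22 TRBV names, with TRBV4 at 12 and TRBV2 at 14. The genotypes did not overlap for TRBV5, but the gap of 0.73 percentage points was smaller than the counting interval of any 1 library, such as 3.77 to 8.28% (exact binomial 95%) in 5xFAD;Cxcr6-/- library 1.

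TRBV4 made up 2.51 and 2.96% of clones in 5xFAD and 4.85 and 4.92% in 5xFAD;Cxcr6-/-, and 1.77 and 2.76% against 4.94 and 7.84% of cells. Both 5xFAD;Cxcr6-/- libraries lay above both 5xFAD libraries on either count. The same order, with no overlap, was seen for 6 of 22 TRBV names (27.3%), and the opposite order for 4 (18.2%). The exact permutation test gave p = 0.333 for clones and for cells. Without the largest clone of each segment, an alternative added after seeing the data, TRBV4 cells were 4.97 and 5.49% of the 5xFAD;Cxcr6-/- libraries.

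TRBV2 had no such order. Its share of clones was 2.30 and 3.40% in 5xFAD and 2.20 and 5.16% in 5xFAD;Cxcr6-/-, so 5xFAD;Cxcr6-/- library 1 was lowest and library 2 highest. The 3 segments together took 10.0, 11.2, 12.8 and 15.8% of clones in that library order.

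**Figure D2:**
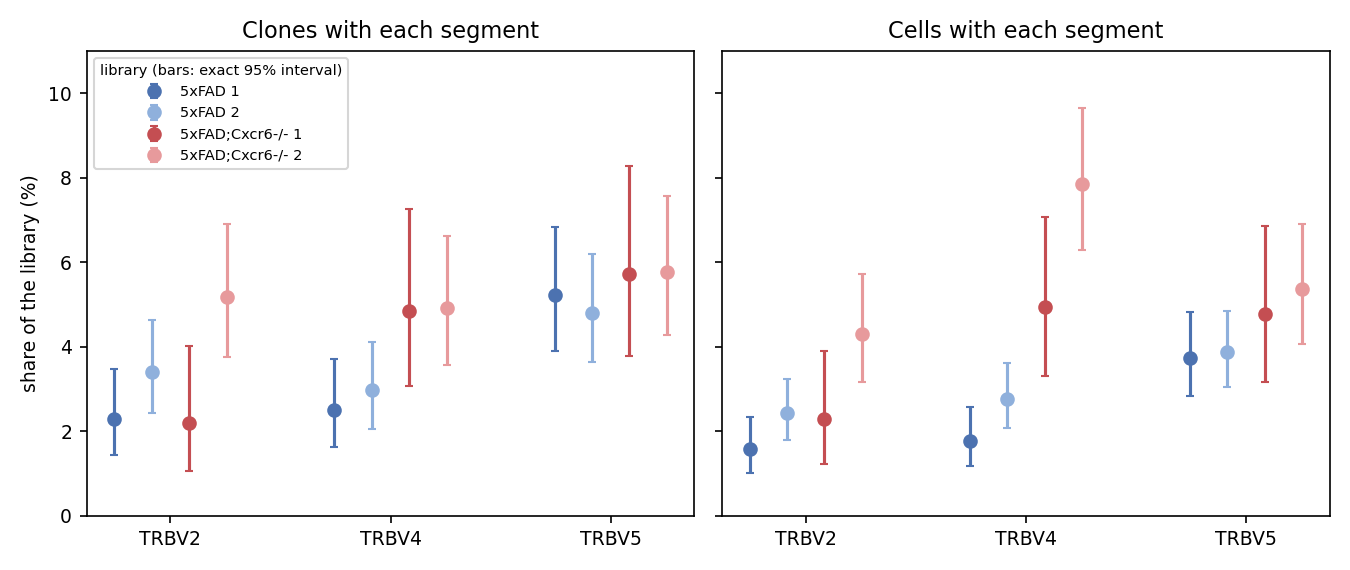
Share of each library's clones (left) and cells (right) with each segment (y axis, %), with exact 95% intervals for counting error. TRBV4 sits at 2.51 and 2.96% of clones in 5xFAD and at 4.85 and 4.92% in 5xFAD;Cxcr6-/-. TRBV2 of 5xFAD;Cxcr6-/- library 2 stands at 5.16%, above the 3 other libraries.

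Clone counts per segment were compared between genotypes with edgeR's quasi-likelihood test over 152 V and J segments of both chains, of which 2 (1.32%) passed an adjusted p of 0.05. None of the 3 segments passed. TRBV4 had a log2 fold change of 0.83 (SE 0.26, adjusted p = 0.0996, edgeR) and ranked 3 of 152 by p, TRBV2 0.49 (SE 0.27, adjusted p = 0.630) and TRBV5 0.20 (SE 0.23, adjusted p = 0.791). DESeq2 gave an adjusted p of 0.996 for each. The median over all 152 segments was 0.14. Among clones without TRBV2 the iNKT-like share was 20.3 and 13.1% in 5xFAD and 5.18 and 2.41% in 5xFAD;Cxcr6-/-. This share itself was not tested between genotypes. With iNKT-like and MAIT-like cells left out the log2 fold changes were 0.65 for TRBV4, 0.30 for TRBV2 and -0.0015 for TRBV5. Their edgeR adjusted p-values were 0.535, 0.906 and 0.995. Without 5xFAD;Cxcr6-/- library 2 the TRBV2 value was -0.39. Of the 19 other TRBV names, 0 passed (edgeR); over the 22 names, 3 had an unadjusted p under 0.05 when tested alone.

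Patterns were compared by the root mean square difference of log2 shares, each scaled to its own mean over the 4 libraries. The pattern most like TRBV4 was that of TRBV23 (0.21), then TRBV12-2 (0.22). TRBV23 had only 21 clones over the 4 libraries, so counting error weighs on its match. TRBV2 was most like TRBV19 (0.27) and TRBV14 (0.29), and TRBV5 most like TRBV26 (0.10) and TRBV15 (0.11).

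Most clones were single cells. Of 114 TRBV2 clones 10 were expanded, of 121 TRBV4 clones 18, and of 179 TRBV5 clones 18. The largest held 4 cells in TRBV2, 26 in TRBV4 and 5 in TRBV5. TRBV4 had 3 clones of more than 5 cells, with 26 and 12 cells in 5xFAD;Cxcr6-/- library 2 and 9 in 5xFAD library 2.

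**Figure D3:**
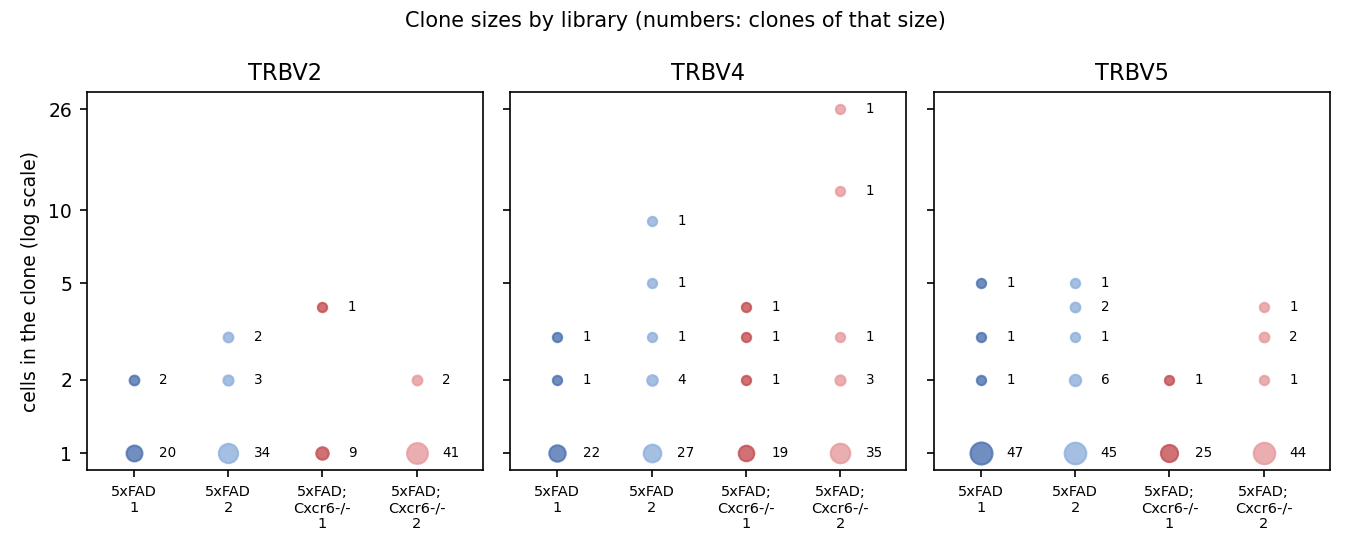
Cells per clone (y axis, log scale) for each segment and library (x axis), with the number of clones of that size beside each point. TRBV2 and TRBV5 clones hold at most 4 and 5 cells, and the 26-cell and 12-cell TRBV4 clones both lie in 5xFAD;Cxcr6-/- library 2.

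The beta CDR3s of the largest clones are given to show the joins of each segment's most expanded cells. Capitals mark the middle bases between the V and J ends.
TRBV4 26 cells: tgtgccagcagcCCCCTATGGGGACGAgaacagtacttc
TRBV4 12 cells: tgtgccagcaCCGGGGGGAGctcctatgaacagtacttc
TRBV4 9 cells: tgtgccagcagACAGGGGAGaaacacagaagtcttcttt
TRBV2 4 cells: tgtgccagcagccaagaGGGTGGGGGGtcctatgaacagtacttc
TRBV5 5 cells (5xFAD 1): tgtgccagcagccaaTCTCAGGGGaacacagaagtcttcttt
TRBV5 5 cells (5xFAD 2): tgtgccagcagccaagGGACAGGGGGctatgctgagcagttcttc
The 26-cell clone made up 2.49% of its library's usable cells (1.63 to 3.62%, exact binomial 95%). It used TRBJ2-7 and paired with TRAV10 and TRAJ52, and the 12-cell clone, also TRBJ2-7, paired with TRAV13N-4 and TRAJ52. The 9-cell clone used TRBJ1-1 and carried 2 alpha chains, TRAV5-4 with TRAJ48 and TRAV7-6 with TRAJ49. All 3 TRBV4 CDR3s had 13 residues. The 4-cell TRBV2 clone of 5xFAD;Cxcr6-/- library 1 joined TRBJ2-7 and kept the full V end.

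Expanded clones were compared with single clones in an edgeR model with the library as a block, in which 5 of 152 segments (3.29%) passed. Among the other TRBV names TRBV13-2 and TRBV20 did. The log2 values, expanded over single, were 0.27 (SE 0.42, adjusted p = 0.898) for TRBV4, -0.62 (SE 0.50, adjusted p = 0.765) for TRBV2 and -0.42 (SE 0.38, adjusted p = 0.765) for TRBV5, so none of the 3 passed. The TRBV4 value was -0.08 with TMM scaling. In the test of whether this difference varied with genotype, 0 of 152 segments passed (4 had an unadjusted p under 0.05, edgeR), and the 3 segments lay between -0.42 and 0.47 with SEs of 0.89 to 1.22.

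In draws of 567 cells per library, the smallest library's number, expanded clones held 9.58 and 32.0% of TRBV4 cells in 5xFAD and 32.1 and 53.3% in 5xFAD;Cxcr6-/-. TRBV2 gave 6.98 and 10.6%, then 30.8 and 4.68%, and TRBV5 11.6 and 19.7%, then 7.41 and 17.04%. Cells with another TRBV gave 39.4 and 38.3% against 30.1 and 20.9%. TRBV5 stayed below them in all 4 libraries, and TRBV2 in 3. These other cells pool names of unlike expansion. Over all libraries, 1.09% of TRBV20 clones and 21.7% of TRBV12-2 clones were expanded, beside 8.77% in TRBV2 and 10.06% in TRBV5. The genotype difference had exact p = 0.333 for TRBV4, 1 for TRBV2 and 0.667 for TRBV5. The TRBV2 value of 30.8% rests on the 4-cell clone, and without it is 0%. For TRBV4 the genotype difference was 21.9 percentage points with all clones and 11.2 without the 26-cell clone. Without that clone the genotypes overlapped, at 9.46 and 32.0% in 5xFAD and 32.1 and 31.8% in 5xFAD;Cxcr6-/- (exact permutation p = 0.667). With all cells in place of draws the TRBV4 difference was 11.4 points, also with overlap (exact permutation p = 0.667).

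Joining segments of the TRBJ2 cluster were used by 81.8, 66.7, 70.0 and 67.4% of TRBV2 clones (5xFAD 1 and 2, then 5xFAD;Cxcr6-/- 1 and 2), by 87.5, 70.6, 77.3 and 65.9% of TRBV4 clones and by 64.0, 70.9, 57.7 and 79.2% of TRBV5 clones. Other TRBV clones had 64.0, 65.4, 61.5 and 65.4% when set against TRBV2. TRBV2 and TRBV4 lay above their library's remainder in 4 of 4 libraries, by 7.40 ± 7.70 and 11.4 ± 10.6 percentage points (exact p = 0.125 each, 0.231 adjusted). TRBV5 was higher in 2 and lower in 2.

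TRBJ2-7 was the leading J of each segment, with 31 TRBV2, 30 TRBV4 and 42 TRBV5 clones. Its mean share over libraries was 30.8 ± 9.51% in TRBV2, 26.1 ± 9.73% in TRBV4 and 21.4 ± 9.50% in TRBV5, against 21.0% in clones without TRBV2. By mean share over libraries, the next J was TRBJ2-5 for TRBV2 (18 clones) and TRBV5 (28 clones) and TRBJ2-1 for TRBV4 (23 clones). After it came TRBJ1-1 for TRBV5 (24 clones), TRBJ2-5 for TRBV4 (13 clones) and TRBJ1-4 for TRBV2, whose 7 clones were fewer than the 11 of TRBJ2-1. Each segment used all 12 TRBJ segments seen. None of these J segments passed the edgeR test of partners, with adjusted p from 0.847 to 0.993.

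Alpha partners were broad. TRBV2 clones used 57 of 88 TRAV and 38 of 43 TRAJ segments, TRBV4 clones 59 and 38, and TRBV5 clones 71 and 41. Ranked by mean share over libraries, the TRAV partners of TRBV2 were TRAV12D-3, TRAV13-1 and TRAV12-2, with 5 clones each. TRBV4 paired most with TRAV12D-3 (8 clones), TRAV6-6 (6) and TRAV16N (7), and TRBV5 with TRAV3D-3 (12), TRAV13-1 (9) and TRAV12D-3 (7). TRAV3D-3 took 6.74 ± 2.13% of TRBV5 clones against 3.002% of other clones (log2 fold change 1.24, SE 0.60, adjusted p = 0.993, edgeR). The leading TRAJ partners were TRAJ31, TRAJ30 and TRAJ23 for TRBV2, TRAJ37, TRAJ22 and TRAJ26 for TRBV4, and TRAJ22, TRAJ33 and TRAJ40 for TRBV5. TRAV names with D or N mark near-identical duplicated copies, so the split between copies is uncertain.

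Of the 130 partner segments tested for each beta segment against all other TRBV clones, 1 passed for TRBV2 (0.769%), 0 for TRBV4 (3 at an unadjusted p under 0.05) and 0 for TRBV5 (4), by edgeR. DESeq2 passed 0 in each. The 1 was TRAV11, the V segment of the iNKT alpha chain. It was found in 0 of 114 TRBV2 clones, which allows a share of up to 2.63%, and in 392 of 3277 other clones (11.96%). At each library's own share in other clones, 11.6 TRBV2 clones with TRAV11 would be expected, so over the 4 libraries it was at least 3.87-fold lower against the limit of 3 clones (edgeR adjusted p = 0.00134). No single library gave a bound above 1.78-fold. The TRAV11 share of other clones was 20.7 and 13.7% in 5xFAD and 5.63 and 2.66% in 5xFAD;Cxcr6-/-. The 22, 39, 10 and 43 TRBV2 clones of these libraries allow shares of up to 13.6, 7.69, 30 and 6.98%, so a lower share was detectable in both 5xFAD libraries and in neither 5xFAD;Cxcr6-/- library. The call was lost without 5xFAD library 1 (adjusted p = 0.147), without 5xFAD library 2 (0.887) and with DESeq2 (0.461).

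For TRBV4 and TRBV5, TRAV11 did not pass the test. It was found in 3 of 121 TRBV4 clones (2.48%, 0.51 to 7.07%, exact binomial) and 5 of 179 TRBV5 clones (2.79%, 0.91 to 6.40%), with log2 values of -1.97 (SE 0.71, adjusted p = 0.715) and -2.00 (SE 0.64, adjusted p = 0.229). With TMM scaling 5 (3.85%), 3 (2.31%) and 2 (1.54%) of the 130 partners passed for TRBV2, TRBV4 and TRBV5. TRAV11 was then among them for TRBV4 and TRBV5, at adjusted p = 0.00175 and 0.0107, and TRBV5 also passed without 5xFAD;Cxcr6-/- library 2, at 0.00954. Between the 3 segments, partners were tested over 48 segments in each of 3 pairs and 0 passed in any, with 1, 2 and 0 at an unadjusted p under 0.05 (edgeR) and 0 by DESeq2 after adjustment.

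iNKT-like clones, with TRAV11 joined to TRAJ18, numbered 0 for TRBV2, 3 for TRBV4 and 4 for TRBV5. The shares were 0, 2.48 and 2.23%, beside 41.6% of 430 clones for the name TRBV12-2+TRBV13-2 and 26.1% of 199 for TRBV29. TRBV2 was among 7 names at 0. From the lowest share, TRBV5 ranked 13 and TRBV4 14 of 22 names, so neither was low among single names. TRBV17, at rank 16, had 4.62% and TRBV13-3, at rank 17, had 10%. The pooled TRAV11 shares of other clones given above include the few names with high shares, so a share below the pool is not particular to these segments. MAIT-like cells, with TRAV1 joined to TRAJ33, numbered 0, 1 and 1.

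**Figure D4:**
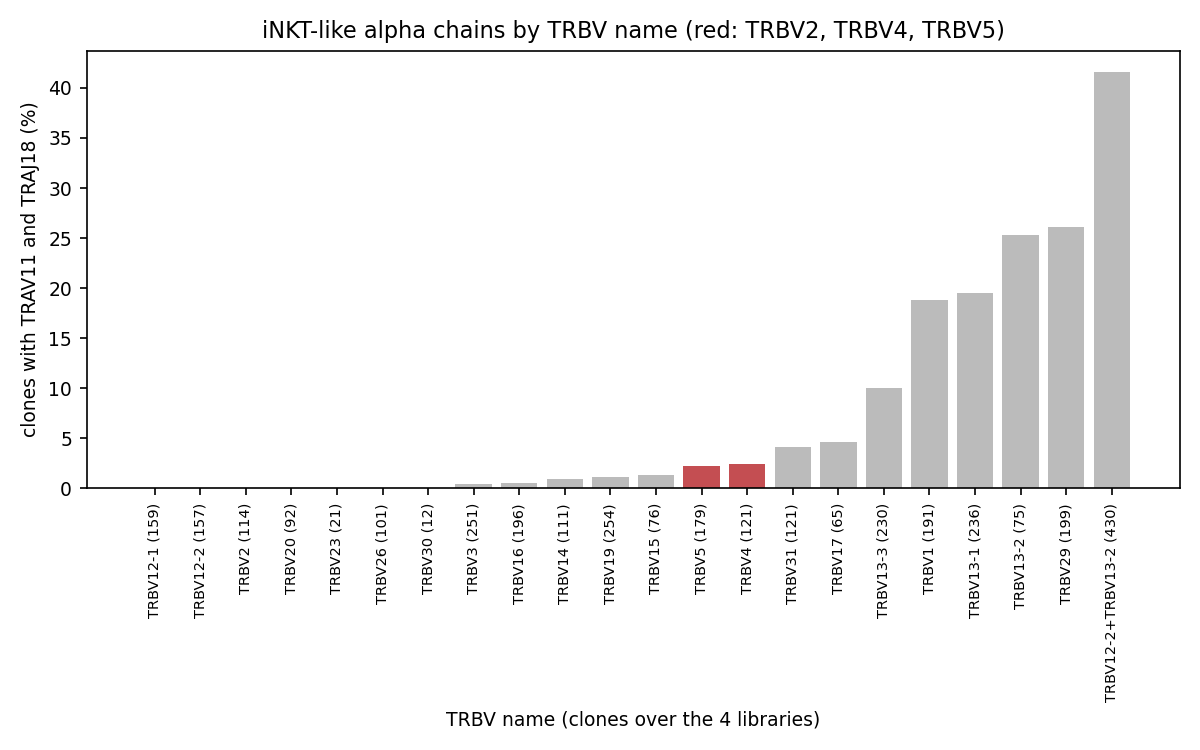
Share of clones with an iNKT-like alpha chain (y axis, %) for the 22 TRBV names (x axis, with the number of clones). TRBV2 has 0 of 114 clones, and TRBV5 and TRBV4 have 2.23 and 2.48%, while the highest bar is 41.6%.

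A second productive alpha chain was found in 21 of 121 TRBV4 clones (17.4%), 11 of 114 TRBV2 clones (9.65%) and 20 of 179 TRBV5 clones (11.2%). In TRBV4 the share was 20.8 and 29.4% in 5xFAD and 4.55 and 14.6% in 5xFAD;Cxcr6-/-, against 10.4, 9.07, 11.1 and 8.96% in other clones. It was higher in 3 of 4 libraries, by 7.47 ± 11.2 percentage points (exact p = 0.375), so the spread exceeded the difference.

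TRBV2 chains were read with few molecules. In usable cells a TRBV2 contig averaged 5.29 and 4.41 UMIs (unique molecular identifiers, a count of captured transcripts) in 5xFAD and 3.46 and 5.51 in 5xFAD;Cxcr6-/-. Contigs of the 19 other TRBV names averaged 12.1, 10.4, 12.95 and 12.7. The groups did not overlap, and the ratio of the means was 0.387 (exact p = 0.125, lower in 4 of 4 libraries). TRBV5 contigs had 0.680 and TRBV4 contigs 0.853 times the UMIs of other names, also lower in 4 of 4 libraries each. By median UMIs over all usable cells, TRBV5 (7) and TRBV4 (9) ranked 5 and 12 from the lowest of 22 names, with ties. TRBV4 was thus not low among single names. The highest medians were those of TRBV16 (15), TRBV17 (19) and TRBV15 (20). The alpha contigs of the same TRBV2 cells averaged 5.13 UMIs against 4.60 in cells of other names (exact p = 0.375). TRBV2 had the lowest median of 22 names, 3.5 UMIs, and 13 of 128 contigs (10.2%) rested on a single UMI, against 1.20% in other names.

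**Figure D5:**
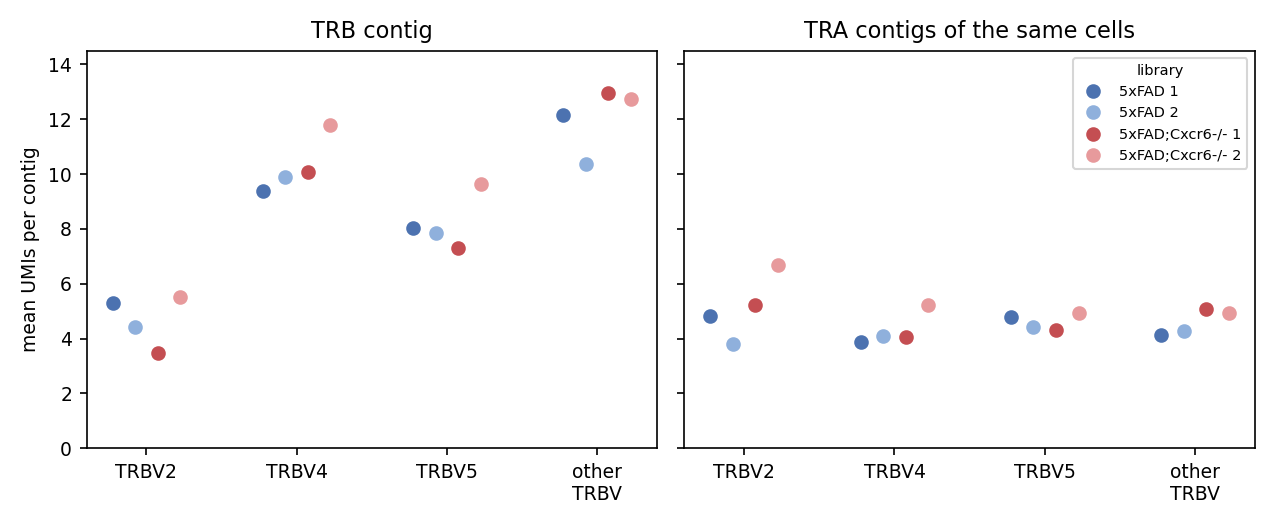
Mean UMIs per contig (y axis) for the TRB contig (left) and the TRA contigs of the same usable cells (right), by segment (x axis) and library (colour). TRBV2 beta contigs lie between 3.46 and 5.51 UMIs and those of other names between 10.4 and 12.95, while the TRA contigs overlap.

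A minimum of 3 UMIs on every chain kept 49.2% of TRBV2 cells, 71.4% of TRBV4 cells, 66.7% of TRBV5 cells and 68.4% of the remainder. The TRBV2 share of cells was 2.55% before and 1.85% after. Cells in which the TRBV2 chain was missed altogether are not in these tables, and their number was not tested.

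Across libraries, 1 of 119 distinct TRBV4 CDR3 amino acid sequences recurred, and 0 of 114 TRBV2 and 0 of 178 TRBV5 sequences. Other names had 14 of 2935 (0.477%). The TRBV4 sequence was found in 1 cell of 5xFAD library 1 and 1 cell of 5xFAD;Cxcr6-/- library 1, both with TRBJ2-7, in 2 nucleotide versions that are shown because they encode the same CDR3.
5xFAD 1: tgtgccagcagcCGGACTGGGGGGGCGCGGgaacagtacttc
5xFAD;Cxcr6-/- 1: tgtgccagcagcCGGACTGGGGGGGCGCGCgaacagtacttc
The versions have 18 middle bases each and differ only at middle base 18, and the 2 cells shared no alpha chain. No beta nucleotide sequence of the 3 segments was found in 2 libraries.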

How the data were processed

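T cell receptor contigs of 4 libraries, 2 per genotype, were used, and expression libraries were not used here. Per the submitters' processing notes the tools include Cell Ranger 6.0 and the build is mm10, with the receptor reference not given in the sources used here. Per the file headers, the deposited tables give each productive contig its unnormalized count of UMIs and of reads. UMI totals per library ran from 13460 to 34772. Doublets were treated by leaving out cells with more than 1 TRB chain. Clones were the deposited clonotypes, whose names were assigned by the submitters' pipeline.

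Segments with at least 10 clones were tested with edgeR 4.0.16 (quasi-likelihood test, offset the log clone total, Benjamini-Hochberg over all segments, R 4.3.3), and DESeq2 1.42.0 was an alternative. The SE is the absolute log2 fold change divided by the square root of F. Library values were compared with exact 2-sided permutation or sign-flip tests. Expanded shares are means of 1000 draws. V and J ends in the CDR3 are the longest match to GENCODE vM21 transcripts, so chance matches add to them. Intervals and limits cover counting error only. Named partners were the 3 with the highest mean share over libraries, per segment and family, plus those that passed, and named clones the 3 largest and those shared by libraries, from which the printed sequences are a selection. The UMI, V-end and second-alpha comparisons were added after their values were seen. Segments and lists were chosen with earlier results of these data known.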

Additional observations from a re-analysis of the deposited data

Results flagged for a closer look

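The share of TRBV4 cells in expanded clones lay below that of cells with another TRBV in both 5xFAD libraries and above it in both 5xFAD;Cxcr6-/- libraries. In draws of equal cell number its difference from them was -29.8 and -6.30 percentage points in 5xFAD and 2.08 and 32.4 points in 5xFAD;Cxcr6-/-. The difference of the genotype means is 35.3 points, and this difference was not tested. The TRBV4 share itself was 32.0% in 5xFAD library 2 and 32.1% in 5xFAD;Cxcr6-/- library 1. Cells with another TRBV had 38.3 and 30.1% there. The value of 5xFAD;Cxcr6-/- library 1 rests on 28 TRBV4 cells, 9 of them in 3 expanded clones. Without the 26-cell clone, an alternative added after seeing the data, the value of 5xFAD;Cxcr6-/- library 2 was 10.51 points.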

How the results depend on the processing

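Of 171 alternatives to 15 model fits, 150 kept their direction and side of the threshold. For 21 results with exact tests, which cannot pass 0.05 in this design, only direction is informative, and 17 of 219 alternatives changed it. The labels number the libraries 1 and 2 in each genotype without saying that they pair, and the deviations of same-numbered libraries correlated at 0.06. With a replicate block the genotype log2 fold changes were 0.42 for TRBV2, 0.81 for TRBV4 and 0.21 for TRBV5, and no call among the 3 changed.

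Leaving out iNKT-like and MAIT-like cells gave -0.0015 for TRBV5 in the genotype test and -0.0036 points in its share of clones, 0 called partners for TRBV2, and log2 values of 0.51, 0.43 and 0.11 for TRAJ18 with TRBV2, TRBV4 and TRBV5 and 0.21 for TRAV11 with TRBV5, which removes the iNKT chains by construction. TMM scaling gave 5, 3 and 2 called partners for TRBV2, TRBV4 and TRBV5 and an expansion value of -0.079 for TRBV4, and DESeq2 gave 0 partners for TRBV2. The genotype difference of the share of cells in expanded clones changed sign for TRBV2 with at least 3 UMIs per chain (-3.71 points), without thinning (-1.55) and without the largest clones (-5.67). It changed sign for TRBV5 with all cells that have a TRB (1.77) and without the largest clones (0.0057). The TRBJ2 difference of TRBV5 was -1.40 points with at least 3 UMIs per chain and -1.57 over cells. With the first 6 residues left out, hydrophobicity differences were 0.022, 0.210 and 0.153 for TRBV2, TRBV4 and TRBV5 and the TRBV4 charge difference -0.070. The settings with 6 residues and without the largest clones were chosen after seeing the data. Beyond the construction named, the cause was not tested.

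Leaving out 1 library at a time, with the lone library of a genotype assumed to vary like the others, gave ranges of -0.39 to 0.83 for TRBV2 in the genotype test and -0.65 to 2.31 points in its share of clones. The interaction ran from -0.68 to 0.26 for TRBV2 and from -1.38 to 0.37 for TRBV5. The expanded share difference ran from -4.11 to 22.0 points for TRBV2 and from -8.24 to 1.40 for TRBV5, and the TRBV4 hydrophobicity difference from -0.057 to 0.066. Called partners ran from 0 to 2 for TRBV2 and from 0 to 1 for TRBV5. Depth limits all 3 segments, with 10 to 55 clones per library and segment.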
